A study of Homo sapiens with 4 samples.

Results

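BTG1, BTG2, BTG3, TOB1 and TOB2, the antiproliferative BTG/TOB family, and ZMAT3, a zinc finger protein that binds RNA, were followed in cells with p53 freed from MDM2. They were found in the count table by Ensembl identifier, through GENCODE release 29, and all 6 were among its 25693 human genes. The cells were NGP, an established human neuroblastoma line with amplified MYCN. In both groups they were first synchronised by removal of serum, then exposed for 24 h to Nutlin-3, an inhibitor of the contact between MDM2 and p53, or to ethanol, the solvent. The study compared single-cell RNA sequencing technologies on this perturbation, and these counts come from the ddSeq droplet device with a kit that reads the 3' end of polyadenylated RNA. Each treatment had 2 libraries, one with the ERCC spike-in RNAs diluted 1000-fold and one 10000-fold. The column names of the table give the treatment and no library, so each treatment is 1 pool of 250 columns. There was no replicate, no test between treatments could be run, and every difference below is between 1 pool and 1 pool. All cells were of 1 line, so another line or an independent culture was not compared.

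BTG and TOB proteins share a conserved domain that binds the CNOT7 and CNOT8 deadenylases of the CCR4-NOT complex, which shortens the poly(A) tails of mRNAs. Through it they bring deadenylation to chosen transcripts, and high levels slow entry into the cell cycle. BTG2 is a long known direct target of p53 and is also induced early by growth factors and stress. ZMAT3, also known as WIG1, is another direct p53 target. It binds AU-rich elements and takes part in mRNA stability and splicing, but a 3' end count cannot show splicing.

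The pools held 1301232 human counts in Nutlin-3 and 1342134 in ethanol. Column totals fell into 2 classes, with 113 large columns (over 4000 counts, median 10647 in Nutlin-3 and 10763 in ethanol) and 137 small columns (median 830 and 871) in each pool. Of the 250 names in a pool, 219 were also used in the other, so a name does not identify a cell. Of all nonzero values, 93.0% in Nutlin-3 and 92.5% in ethanol were equal to 1. Mitochondrial genes took a median of 1.17% of a column in both pools. All 9 adrenergic neuroblastoma markers were seen, with 104 to 1140 counts in ethanol. Markers of other cells were few. The 2 immune markers with counts summed to 56 in Nutlin-3 and 31 in ethanol, mostly LYZ, and 3 epithelial ones to 35 and 20. The endothelial marker VWF had 2 and 1 counts. Of 5 mesenchymal markers, VIM took 277 of the 370 Nutlin-3 counts and 276 of the 347 ethanol counts. The others did not share a direction, with CD44 at 58 and 31 counts, FOSL1 at 14 and 1, FN1 at 19 and 37 and PRRX1 at 2 and 2. The part of these cells in the results was not tested.

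Of the 6 members, 3 had more counts in Nutlin-3 than in ethanol beyond counting error, namely BTG2, ZMAT3 and TOB1. For BTG1, BTG3 and TOB2 the counting interval included no difference. BTG2 had 129 counts against 94, ZMAT3 193 against 142 and TOB1 164 against 127. These are folds of 1.41 (95% counting interval 1.08 to 1.87), 1.40 (1.12 to 1.75) and 1.33 (1.05 to 1.69). Intervals of folds were derived from the share of a gene's counts that lay in Nutlin-3, as exact binomial intervals, and those of counts are exact Poisson intervals. Both cover counting error only and hold no variation between cultures. At 95% they leave out equality for 3 of 6 members upward and 0 of 6 downward, where 4.55% of all 14830 genes that passed the filter on low counts did so upward and 3.59% downward. Among the 8844 genes that averaged 50 or more counts per 1000000 human counts (CPM), to which all 6 members belong, these shares were 2.11% and 2.2%. A log2 fold change of at least 0.5 was reached by 1 of 6 members, BTG2. It lay on the limit at 0.50, with ZMAT3 at 0.49 and TOB1 at 0.41, where 9.47% of all genes and 0.972% of those at 50 CPM or more reached it. No member (0 of 6) reached it downward, where 7.51% and 1.01% of genes did. Directions are relative to the human counts. Scaled to the ERCC counts instead, the median of all genes moved to -0.47 and the intervals left out equality for 0 of 6 members upward and 2 of 6 downward. Those were TOB2 at -0.49 (-0.94 to -0.04) and BTG3 at -0.35 (-0.70 to -0.0098). BTG1 was then at -0.29, TOB1 at -0.055, BTG2 at 0.032 and ZMAT3 at 0.019. The pools held 4007 ERCC counts in Nutlin-3 and 2989 in ethanol. These sums also depend on how many columns came from the 1000-fold and the 10000-fold library, which is not known. The intervals under ERCC scaling take their ratio as exact, so these directions are not established.

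**Figure D1:**
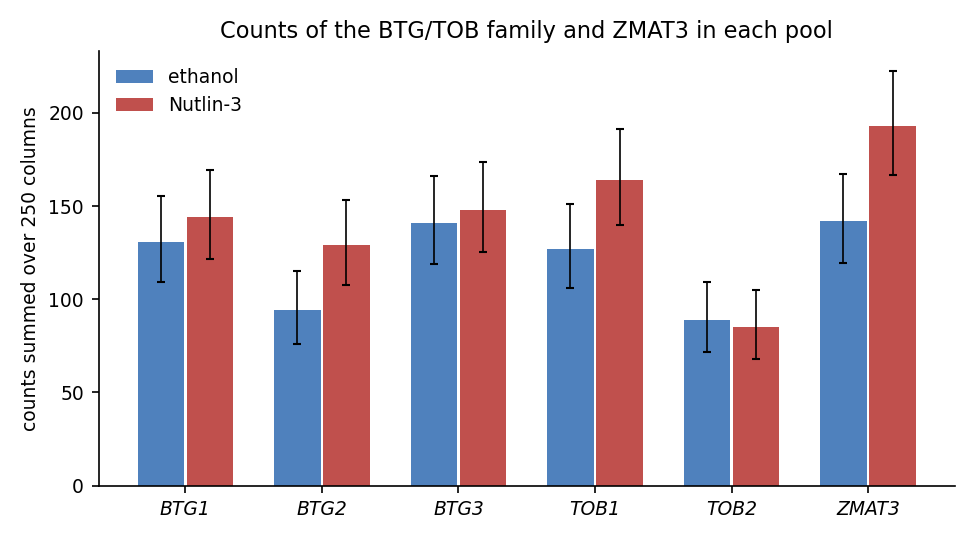
Counts of each gene summed over the 250 columns of a pool (bars), with exact 95% Poisson intervals (lines), in ethanol (blue) and Nutlin-3 (red). ZMAT3 is the highest in both pools, with 193 and 142 counts, and TOB2 has the closest sums, with 85 and 89.

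BTG2 (ENSG00000159388, chr1:203305491-203309602, plus strand, GRCh38) encodes the family member most tied to p53. With Nutlin-3 its 129 counts (Poisson interval 108 to 153) were 99.2 CPM, and with ethanol its 94 (76.0 to 115) were 70.0 CPM. The log2 fold change was 0.50 (0.11 to 0.90). In large columns the difference lay both in whether a column held the gene at all and in columns with 2 counts. BTG2 was absent from 24 of 113 large ethanol columns and from 6 of 113 large Nutlin-3 columns, and 1 ethanol column against 15 Nutlin-3 columns had 2 counts. The share of large columns with BTG2 was thus 94.7% with Nutlin-3 (exact binomial interval 88.8 to 98.0) and 78.8% with ethanol (70.1 to 85.9). These intervals cover counting error over the columns of 1 pool each, and the columns are no replicates of a treatment. Averaged over all possible draws of 700 counts per column, the shares of large columns with BTG2 were 7.31% and 5.23%. In small columns it was rare, with 7 counts with Nutlin-3 and 4 with ethanol, which is a log2 fold change of 0.87 (-1.04 to 3.16) that counting error leaves undecided. When no column was allowed more than 1 count, a setting chosen after the data were seen, the log2 fold change of BTG2 was 0.33 (-0.08 to 0.74).

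The region before the BTG2 start is shown because this gene had the largest fold of the family and is a known p53 target. The stretch is chr1:203305310-203305490 on the plus strand of GRCh38.p14, from the RefSeq promoter table. It lies just upstream of the first GENCODE exon and ends 28 bases before the RefSeq start. Capitals mark a CCAAT box (CCAAT, searched on both strands).
BTG2 upstream: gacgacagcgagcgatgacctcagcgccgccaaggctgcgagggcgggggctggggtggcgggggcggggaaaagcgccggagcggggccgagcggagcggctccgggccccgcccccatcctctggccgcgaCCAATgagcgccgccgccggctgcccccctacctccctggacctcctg
A CCAAT box was present in 34.6% of all 35116 RefSeq windows of 300 bases. The full p53 response element was also searched, as the standard consensus of 20 bases without a spacer, in the windows of all 6 members. The best matches in BTG2 and ZMAT3 had 16 of 20 bases in place, and 26.0% of all windows held a match at least as good. The other members' best matches had 14 or 15 of 20, which 97.4% and 70.5% of windows reached. These 2 matches are shown with the fitting bases in capitals. That of BTG2 spans chr1:203305505-203305524 on the plus strand and that of ZMAT3 chr3:179071873-179071892 on the minus strand.
BTG2 best match: GGGaAAGTCCGGGCAgagCC
ZMAT3 best match: GGGCcTGCTCcGcCAAGCaC
A match describes the letters and is no evidence of binding, and sites outside the window were not searched.

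ZMAT3 (ENSG00000172667, chr3:179017223-179072279, minus strand) had the most counts of the members in each pool. With Nutlin-3 its 193 counts (167 to 222) were 148 CPM, and with ethanol its 142 (120 to 167) were 106 CPM. The log2 fold change was 0.49 (0.17 to 0.81). In large columns ZMAT3 was nearly always present, in 113 of 113 with Nutlin-3 and 111 of 113 with ethanol, so the difference there lay in columns with more than 1 count. Such columns numbered 31 in Nutlin-3 and 10 in ethanol, and those with 3 counts 5 and 1. The log2 fold change in large columns was 0.33 (-0.03 to 0.69), with 149 against 122 counts. In small columns it was 1.25 (0.48 to 2.11), with 44 against 20 counts. There, 43 of 137 Nutlin-3 columns (31.4%, 23.7 to 39.9) and 19 of 137 ethanol columns (13.9%, 8.56 to 20.8) held the gene. With at most 1 count per column the value over all columns was 0.30 (-0.04 to 0.65).

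TOB1 (ENSG00000141232, chr17:50862223-50867978, minus strand) encodes a family member that also binds the poly(A) binding protein PABPC1 and was first found as a partner of the receptor ERBB2. It had 164 counts with Nutlin-3 (140 to 191) and 127 with ethanol (106 to 151), or 126 and 94.6 CPM, which is a log2 fold change of 0.41 (0.07 to 0.76). The difference was carried mainly by the small columns. There TOB1 had 36 counts with Nutlin-3 and 14 with ethanol, each in a separate column, which is a log2 fold change of 1.46 (0.57 to 2.50). In large columns the sums were 128 and 113, which is a log2 fold change of 0.22 (-0.16 to 0.60), with TOB1 absent from 1 and 7 columns. The difference between the classes of columns was not tested for any gene. With at most 1 count per column TOB1 was at 0.34 (-0.02 to 0.70) over all columns.

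A promoter window of TOB1 is shown because this was the other family member with a fold above counting error. It is chr17:50866355-50866604 on the minus strand of GRCh38.p14, the 250 bases before a RefSeq start that lies within an intron of the longest GENCODE transcript. Capitals mark a CCAAT box and, further on, the half-site of the cAMP response element (TGACG), both searched on both strands.
TOB1 upstream: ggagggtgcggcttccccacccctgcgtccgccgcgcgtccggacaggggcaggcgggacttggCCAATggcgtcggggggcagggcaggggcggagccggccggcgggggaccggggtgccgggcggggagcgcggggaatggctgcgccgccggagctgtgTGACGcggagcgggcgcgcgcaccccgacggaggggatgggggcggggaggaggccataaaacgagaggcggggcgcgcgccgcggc
A further TOB1 window, at the RefSeq start chr17:50867978, held neither a CCAAT box nor the half-site. The 250 bases before that start lie in annotated exons, so none are shown. The half-site was in 24.6% of all windows, and among the members also in those of BTG1, with 2 matches, and BTG2, with 1. The E-box CACGTG, which MYCN binds, was in 0 of the 8 windows of the members and in 7.26% of all windows. A TATA box (TATAAA) was found only in the BTG1 window, and in 11.5% of all windows.

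BTG1 (ENSG00000133639, chr12:92140278-92145897, minus strand), the founding member of the family, is known for high levels in resting cells. It had 144 counts with Nutlin-3 (121 to 170) and 131 with ethanol (110 to 155), or 111 and 97.6 CPM. The log2 fold change was 0.18 (-0.17 to 0.53). BTG1 was in 108 of 113 large columns of either pool, with a log2 fold change of 0.076 (-0.31 to 0.46). In small columns it had 26 against 16 counts, at 0.82 (-0.12 to 1.83).

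BTG3 (ENSG00000154640, chr21:17593653-17612947, minus strand), also called ANA, had 148 counts with Nutlin-3 (125 to 174) and 141 with ethanol (119 to 166), or 114 and 105 CPM. The log2 fold change was 0.12 (-0.23 to 0.46). BTG3 was seen in 113 and 112 of the 113 large columns, and small columns held 18 and 16 counts. In neither class did the pools differ beyond counting error.

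TOB2 (ENSG00000183864, chr22:41433492-41447023, minus strand), the close relative of TOB1, was the least counted, with 85 counts with Nutlin-3 (67.9 to 105) and 89 with ethanol (71.5 to 110). These were 65.3 and 66.3 CPM, which is a log2 fold change of -0.020 (-0.47 to 0.42). TOB2 was found in 79 of 113 large columns in each pool, and 5 ethanol columns but 0 Nutlin-3 columns had 2 counts. The interval allows a change of 1.34-fold upward or to 0.723 of the ethanol level, so a change of the size seen in TOB1 is within it. BTG4, the remaining family member, was not analysed here.

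Some members share sequence or position with other genes, and the sources do not say whether counting used the strand. AC025164.1, antisense to the BTG1 start, had 31 counts with Nutlin-3 and 20 with ethanol. LINC01619, which overlaps the 3' end of BTG1, had 9 and 5. It lies on the same strand as BTG1, so the strand alone would not separate their reads. TOB1-AS1 overlaps the TOB1 start and had 32 and 26. BTG3-AS1 overlaps that of BTG3 and had 23 and 30. The TOB2 pseudogene TOB2P1 had 8 and 5 counts. All of these were well below the counts of the member itself, and how reads were divided between them was not tested.

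The order of the CPM levels in ethanol was ZMAT3, BTG3, BTG1, TOB1, BTG2 and TOB2. The intervals of the counts of neighbours in that order overlapped, and the intervals of the first 4 genes all overlapped each other. In Nutlin-3 TOB1 stood second and the order was otherwise the same, and there the intervals of BTG2 and TOB2 did not overlap. These levels are 3' end counts and were not divided by transcript length, so they order the counts and not the transcripts.

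How a member's sum was built differed between the classes of columns. In large columns most values were 1. Columns with exactly 1 count ranged from 74 of 113 for TOB2 in ethanol to 101 of 113 for BTG1 and ZMAT3 in ethanol. The ratio of variance to mean over large columns was 0.105 to 0.379 for the 12 pairs of member and pool, where independent molecules would give about 1. Over small columns it was 0.730 to 0.978. Poisson and binomial intervals therefore do not describe the spread over large columns. What gives this narrow spread was not tested.

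**Figure D2:**
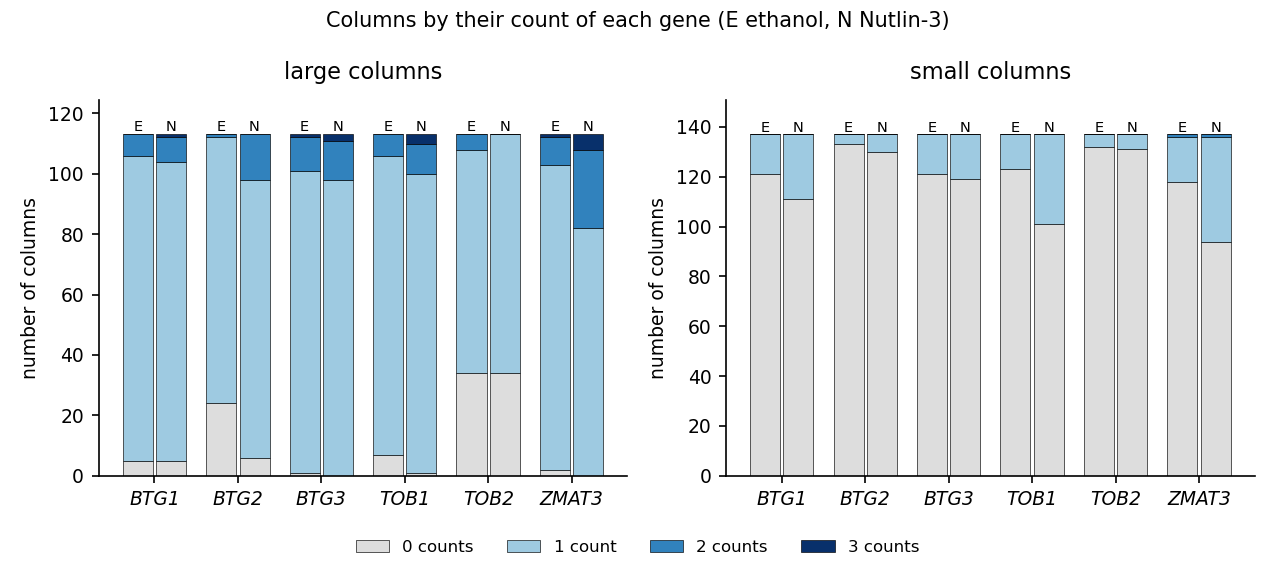
Number of large (left) and small (right) columns with 0, 1, 2 or 3 counts of each gene, in ethanol (E) and Nutlin-3 (N). In large columns the class without BTG2 has 24 ethanol and 6 Nutlin-3 columns, while that with 2 or 3 counts of ZMAT3 has 10 and 31. In small columns TOB1 and ZMAT3 are seen more often in Nutlin-3.

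**Figure D3:**
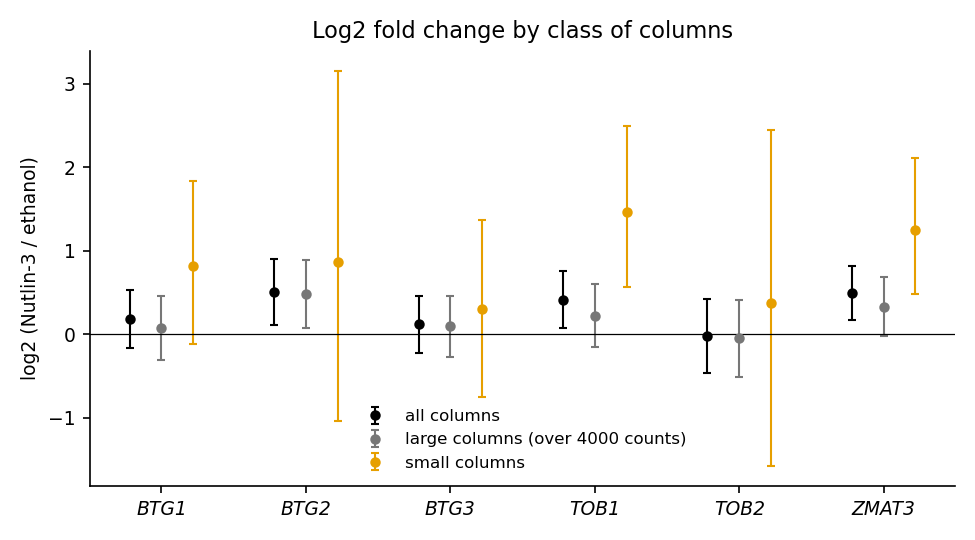
Log2 ratio of Nutlin-3 to ethanol for each member, over all columns (black), large columns (grey) and small columns (orange), with 95% counting intervals. In small columns TOB1 is at 1.46 and ZMAT3 at 1.25, and their intervals lie above 0, as does that of BTG2 in large columns.

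Shares of columns were also compared at 1 depth, since columns differ in their totals. Each column was thinned to 700 counts, which left 187 Nutlin-3 and 194 ethanol columns and dropped 63 and 56. Averaged over all possible draws, a calculation added after the data were seen, ZMAT3 was in 16.0% of Nutlin-3 and 7.40% of ethanol columns. TOB1 was in 11.9% and 5.91%, and BTG1 in 9.79% and 7.05%. BTG2 was in 5.67% and 3.84%, BTG3 in 8.14% and 7.56%, and TOB2 in 3.78% and 3.45%. A single random draw gave ZMAT3 in 37 of 187 Nutlin-3 columns (19.8%, 14.3 to 26.2) and 10 of 194 ethanol columns (5.15%, 2.50 to 9.28). In the draw to 350 counts the shares of ZMAT3 were 7.36% and 6.64%, and in its large columns 1.77% and 7.08%, the opposite order, so single draws are noisy. The averages over all draws of 700 were 8.98% and 7.20% in large columns and 26.8% and 7.69% in small columns. Without thinning the shares of ZMAT3 were 62.4% of 250 columns in Nutlin-3 and 52.0% in ethanol, at median depths of 2010.5 and 2287 counts. No cell type that lacks these genes was present, so the share that free RNA alone would give is unknown. More cells with a gene and more RNA of it per cell cannot be told apart in the pool sums.

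The members were also counted together. Of the 137 small columns in each pool, 56 with Nutlin-3 and 85 with ethanol held none of the 6, and 39 and 16 held at least 2. Depth moved with this. The median human total was 1505 counts in the Nutlin-3 columns with at least 2 members and 479 in those without any, and 2337.5 and 659 in ethanol. TOB1 and ZMAT3 met in 16 small Nutlin-3 columns, where their separate shares give 11.3, and in 4 small ethanol columns, where they give 1.94. This was not particular to that pair. Of the 15 pairs of members, 13 in small Nutlin-3 columns and 10 in small ethanol columns met more often than their shares give. All 6 members were present in 78 of 113 large Nutlin-3 columns and 62 of 113 large ethanol columns. Columns of unequal depth share genes for that reason alone, and these counts are a description.

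The place of the members among other genes was read from the 8844 genes averaging 50 CPM or more. Of these, 0.972% had a fold as high as that of BTG2, 1.04% as high as that of ZMAT3 and 1.8% as high as that of TOB1. For BTG1, BTG3 and TOB2 the shares were 11.2%, 19.9% and 52.7%. The median log2 fold change of the 6 members was 0.30, with 5 higher and 1 lower in Nutlin-3, beside a median of -0.011 over the 8844 genes, of which 47.1% were higher. The central 95% of those genes lay between -0.37 and 0.37.

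**Figure D4:**
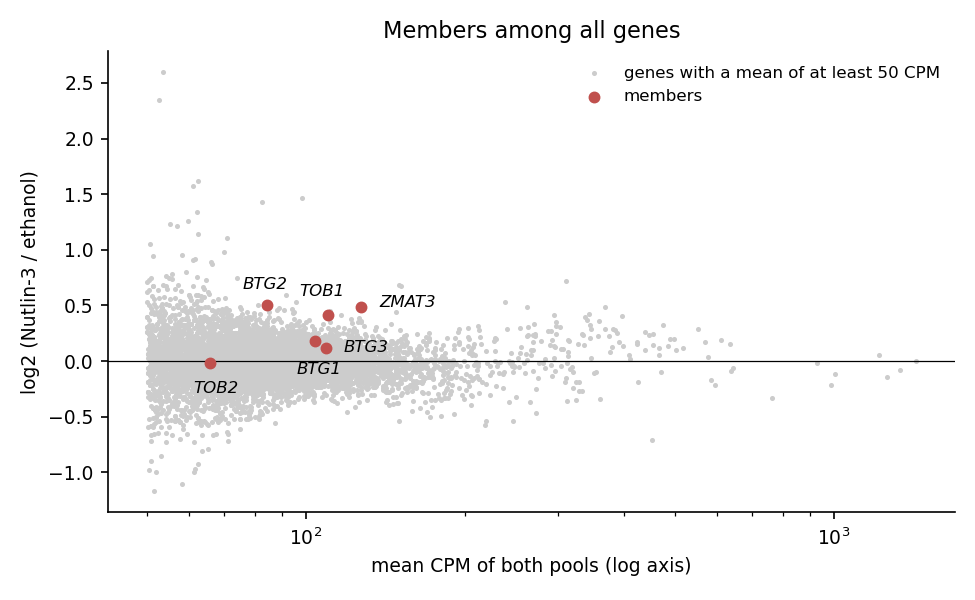
Log2 ratio of Nutlin-3 to ethanol against mean CPM (log axis) for the 8844 genes averaging 50 CPM or more (grey) and the 6 members (red). BTG2, ZMAT3 and TOB1 lie above the bulk of genes of their level, and BTG1, BTG3 and TOB2 lie within it.

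For each member the genes with the most similar sums were sought over 4 values, the log2(CPM + 1) of large and small columns in each pool, among 14829 other genes. BTG2 was nearest to TTC9B (distance 0.136) and MICAL1 (0.197), TOB1 to CPE (0.173) and SERTM2 (0.209), and ZMAT3 to MIAT (0.121) and CHGB (0.159). CPE and CHGB belong to neuroendocrine secretory granules and MIAT is a long noncoding RNA. Each of these 3 members had 3 genes within a distance of 0.25. BTG1, nearest to ATP8A1 and AADAT, had 27, TOB2, nearest to ARMCX5 and BRAP, had 20, and BTG3 had 138. The 4 sums share pools and are no independent samples.

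The counts of the deadenylases through which the family acts barely differed between the pools. All 14 genes of the CCR4-NOT and PAN2-PAN3 complexes passed the filter, 10 higher and 4 lower, with a median log2 fold change of 0.085. CNOT7, the catalytic subunit that BTG and TOB proteins bind, had 163 counts with Nutlin-3 and 165 with ethanol, which is a log2 fold change of 0.028 (-0.29 to 0.35). Its paralog CNOT8 had 137 and 131 (0.11, -0.25 to 0.47). Of these counts, the 113 large columns of each pool held 134 and 137 for CNOT7 and 122 and 116 for CNOT8. Whether sums so near 1 count per large column can show a change in level was not tested, here or for the lists below. TNKS1BP1, a protein found with the complex, was the 1 gene of 14 past 0.5, where 9.47% of all genes were. It had 89 against 64 counts and was at 0.52 (0.04 to 1.01), followed by CNOT3 at 0.26 (-0.31 to 0.84). CNOT10 at -0.14 (-0.53 to 0.24) and CNOT9 at -0.051 (-0.41 to 0.30) were the lowest.

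Of 7 other partners, 3 were higher and 4 lower, with a median of -0.032, and 0 had an interval without 0. Over all genes that passed the filter, 4.55% had such an interval upward and 3.59% downward. PRMT1, the arginine methyltransferase that binds BTG1 and BTG2, had 119 and 114 counts (0.11, -0.28 to 0.49). CPEB2, of the cytoplasmic polyadenylation element binding proteins, was the highest at 0.49 (-0.02 to 1.01), before CPEB4 at 0.18 (-0.20 to 0.56). CPEB1 was the lowest at -0.14 (-0.63 to 0.36), after the poly(A) binding protein gene PABPC4 at -0.092 (-0.38 to 0.20).

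Proteins that, like ZMAT3, bind AU-rich elements were divided evenly. Of 11 in the list 10 were measured, 5 higher and 5 lower, with a median of -0.013, and ZFP36L1 was not analysed here. ELAVL1, the widely expressed HuR protein, had 155 and 156 counts (0.036, -0.29 to 0.37). HNRNPD, the AUF1 protein, had 230 counts with Nutlin-3 and 294 with ethanol, or -0.31 (-0.56 to -0.05) on the log2 scale. It was the 1 gene of the 10 whose interval left out 0, where 3.59% of all genes had one below 0. ZFP36L2, a decay factor, was at -0.19 (-0.55 to 0.17). The neuronal ELAVL4 was the highest at 0.17 (-0.08 to 0.43), followed by ZFP36 at 0.14 (-0.65 to 0.94).

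Among the genes named after the same zinc finger as ZMAT3, none was higher beyond counting error, where 4.55% of all genes were. ZMAT2 had 136 and 139 counts (0.014, -0.34 to 0.37) and ZMAT5 86 and 109 (-0.29, -0.72 to 0.12). ZMAT4 had only 10 and 11 counts (-0.086, -1.49 to 1.28). ZMAT1 had 0 in Nutlin-3 and 2 in ethanol and did not pass the filter. The median of the 3 genes that passed, -0.086, is the value of ZMAT4 and is as uncertain as its interval.

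Over all columns, other direct p53 targets as a list differed more than the members. All 28 of a list without the members passed the filter and were higher in Nutlin-3. The list was chosen with earlier results of these data known. Among the 8844 genes averaging 50 CPM or more, 47.1% were higher by any size. Of the 28 targets, 18 were higher by at least 0.5, beside 9.47% of all genes, and 20 had intervals above 0, beside 4.55%. The median log2 fold change of the 28 was 1.00, beside -0.0017 over all genes. It was the same with TRIM22, which had 15 and 0 counts, at the bound that 3 counts in ethanol set (at least 5.16-fold higher). That bound leaves out the counting error of the 15 counts, and the lower end of the counting interval of TRIM22 was 3.70-fold. BBC3, the gene of the apoptosis protein PUMA, had 106 against 17 counts (2.65, 1.94 to 3.52). PHLDA3, an inhibitor of AKT, had 120 against 20 (2.60, 1.94 to 3.39). CDKN1A and MDM2 were at 1.46 (1.07 to 1.89) and 0.72 (0.52 to 0.93). The lowest were FBXO22 at 0.065 (-0.28 to 0.41) and PPM1D, a phosphatase of the p53 loop, at 0.10 (-0.27 to 0.48). BBC3 and PHLDA3 had 17 and 20 counts in ethanol, whereas ZMAT3, TOB1 and BTG2 had 94 to 142 there, most of them 1 to a large column. In small columns alone, the targets that passed the filter there had a median of 0.87. The members were there at 1.46 for TOB1, 1.25 for ZMAT3, 0.87 for BTG2, 0.82 for BTG1, 0.37 for TOB2 and 0.30 for BTG3. Whether the size of a fold depends on a gene's level in ethanol was not tested.

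Of the immediate early genes, to which BTG2 is often counted, 1 that passed the filter, FOS, was higher in Nutlin-3 beyond counting error. Of 14 genes 11 passed the filter, 9 higher and 2 lower by any size, with a median of 0.10. Among the 8844 genes averaging 50 CPM or more, 47.1% were higher by any size. A log2 fold change of at least 0.5 upward was reached by 2 of the 11, where 9.47% of all genes reached it. The 1 gene with an interval above 0 stands beside 4.55% of all genes. FOS had 56 counts with Nutlin-3 and 18 with ethanol (1.66, 0.89 to 2.54). EGR1 had 72 and 54 (0.46, -0.07 to 1.00). KLF6 at -0.27 (-0.67 to 0.12) and IER3 at -0.18 (-0.71 to 0.34) were the lowest.

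**Figure D5:**
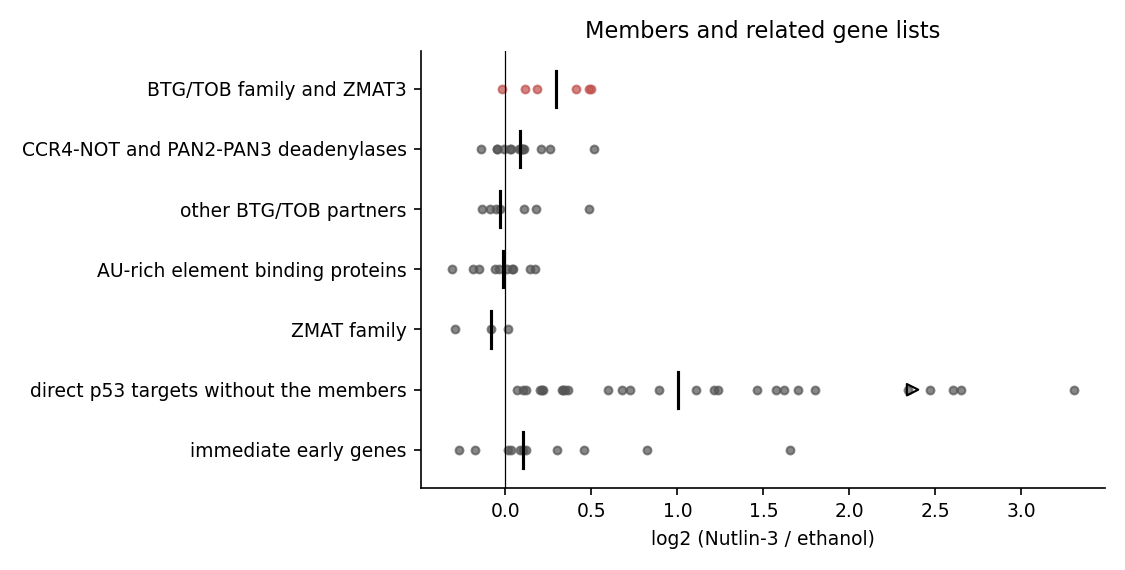
Log2 ratio of Nutlin-3 to ethanol for the 6 members (red) and the genes of 6 related lists that passed the filter (grey), with the median of each as a bar and TRIM22 as an open triangle at its lower bound. The p53 targets spread furthest to the right with a median of 1.00, the members have a median of 0.30, and the other lists have medians of -0.086 to 0.10.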

How the data were processed

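RNA counts from 4 ddSeq libraries of NGP cells, 2 per treatment, were analysed. The authors deposited 1 table of whole-number counts per gene and column. Libraries were made with the SureCell WTA 3' kit, per the labels' protocols. For the aligner, genome build, annotation, molecular tags and any removal of cells, the method is not given in the sources used here. Columns named treated were taken as Nutlin-3 and those named untreated as ethanol, and 0 columns were left out.

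Counts were summed per treatment without the 62 ERCC species and scaled by TMM factors (0.9997 in Nutlin-3 and 1.0003 in ethanol) from edgeR 4.0.16, run under R 4.3.3. The edgeR filter with a minimum count of 10 kept 14830 genes. Log2 fold changes used 0.5 added counts, and their intervals, from scipy 1.17.1, are 95% exact binomial. The calculation was tested on pool sums simulated as Poisson counts. That test cannot show how the intervals behave with the narrower spread of the large columns. No p-value was computed. Gene symbols and coordinates are those of GENCODE release 29 (GRCh38), which need not be the authors' build, and promoter windows from the RefSeq table on GRCh38.p14.

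The members, lists and rules were chosen with earlier results of these data known. Named beside the members were the 2 highest and 2 lowest genes of each list with a mean of at least 20 CPM, CNOT7, CNOT8, PRMT1, ELAVL1, CDKN1A and MDM2, relatives by symbol, and the 2 nearest genes of each member except BTG3. Some results that this rule or the marker lists would name are not reported here. The call by counting interval alone was added later. Genes overlapping a member, ZMAT1, ZMAT4 and TRIM22 were named after their values were seen. Doublets were not called, as the cells are of a single line. Alternatives were DESeq2 1.42.0 size factors, library totals, ERCC scaling, other sets of columns, thinning, 3 added counts and a cap of 1 count per column.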

Additional observations from a re-analysis of the deposited data

How the results depend on the processing

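No paired analysis was possible because column names do not tell the libraries apart. Neither a fit with a replicate block nor leaving out a library was therefore run. Of 60 alternative values of the 6 members' log2 fold changes, 51 stayed within the counting interval of the first value, 8 left it and 1, TOB1 under ERCC scaling, changed sign from an interval without 0. This is a loose measure. Library totals and size factors could hardly move a value, as the TMM factors were near 1. Those that stayed include TOB1 (-0.16 to 0.60) and ZMAT3 (-0.03 to 0.69) in large columns, whose own intervals held 0. With at most 1 count per column the same was true of BTG2, ZMAT3 and TOB1. ERCC scaling takes 1 constant from every gene. That constant depends on the unknown mix of the 1000-fold and 10000-fold libraries in each pool. ERCC scaling gave -0.29 for BTG1, 0.032 for BTG2, -0.35 for BTG3, -0.055 for TOB1, -0.49 for TOB2 and 0.019 for ZMAT3. Under it the list medians were -0.38 for the deadenylases, -0.50 for other partners, -0.48 for AU-rich element binding proteins, -0.55 for the ZMAT family, -0.37 for immediate early genes and 0.53 for p53 targets, the last within its first interval. Small columns alone gave 0.82 for BTG1, 1.46 for TOB1 and 1.25 for ZMAT3, and the cause was not tested. BTG2 was just under a log2 fold change of 0.5 with large columns alone (0.476), library totals (0.499), the deeper columns (0.496), names found in both pools (0.493) and 3 added counts (0.490). The share of genes past the fold was 9.47% at 0.5, 3.14% at a log2 of 1 and 0.972% at 50 CPM or more. Shares of columns followed the depth. With 7 and 4 counts of BTG2 and 6 and 5 of TOB2 in small columns, their differences there were not detectable at this depth.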
